A study of Arabidopsis thaliana with 6 samples.

Results

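Arabinogalactan proteins (AGPs) are cell surface proteoglycans of plants whose protein backbone is rich in hydroxyproline, alanine, serine and threonine and carries large arabinogalactan chains. Many are held at the outer face of the plasma membrane by a glycosylphosphatidylinositol (GPI) anchor. Fasciclin-like arabinogalactan proteins (FLAs) carry fasciclin domains, a fold known from cell adhesion proteins, beside AGP-like stretches. Both families are known from cell expansion, root growth, pollen and the building of the cell wall. The genes examined here are the protein-coding genes of Arabidopsis thaliana whose symbol is AGP or FLA followed by a number. They are 49 genes, 30 AGP and 19 FLA, of 27444 protein-coding genes on the 5 nuclear chromosomes.

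The data are chromatin immunoprecipitation followed by sequencing (ChIP-seq) with an antibody to the HA tag, from whole seedlings 9 days old under continuous white light. The genotype label of all 6 libraries is WDR5A-HA_pkl, so an HA-tagged WDR5A and the pkl background are shared by the 3 immunoprecipitated (IP) libraries and the 3 input libraries. WDR5A is a WD40-repeat subunit of complexes that methylate lysine 4 of histone H3, and PKL (PICKLE) is a chromatin remodeller of the CHD3 type. The library titles differ, with PKL_WT in those of the IP libraries and PKL_jaw-5D in those of the inputs, so bait and genotype rest on the descriptions and the genotype label. The labels name neither the promoter that drives the tagged protein nor the pkl allele, and whole seedlings mix all cell types.

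The 3 IP libraries, biological replicates per the series' design text, each have a list of peak summits of 1 bp with a strength, read as the −log10 q of the peak. They hold 10864, 10408 and 10826 summits for replicates 1, 2 and 3, with median strengths of 7.08, 6.48 and 6.64. Reads per library are unknown, so no counting interval can be given, and a gene without a summit is one at which none was called. Neither a list of the inputs nor another genotype was analysed here, so the only contrasts are between genes. A gene is named called here when every one of the 3 lists has a summit within the gene or up to 500 bp from either edge.

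AGP genes were called more often than the average protein-coding gene and FLA genes about as often. Of the 30 AGP genes 12 (40.0%) were called, where 24.8% of all protein-coding genes were. Of the 19 FLA genes 5 (26.3%) were called. One further AGP gene had a summit in 2 lists, 4 in 1 list and 13 in none. Among the FLA genes 3 had a summit in 2 lists, 4 in 1 list and 7 in none. Genes of a family are not replicates, so these shares are descriptions and were not tested against the background.

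List by list, the families did not stand in a fixed order. The lists of replicates 1, 2 and 3 reached 14, 13 and 15 AGP genes, 46.7% ± 3.33 (SD, n = 3), and 10, 5 and 10 FLA genes, 43.9% ± 15.2 (SD, n = 3). Over all protein-coding genes the same lists reached 34.3%, 33.2% and 34.4%. The AGP share minus the FLA share was −5.96, 17.0 and −2.63 percentage points, a mean of 2.81 ± 12.4 (SD, n = 3), smaller than the spread between lists (exact 2-sided sign-flip permutation p = 1, with 0.25 the smallest that 3 lists allow). The FLA share in the list of replicate 2 was lower than in the other lists. Without replicate 2, 8 FLA genes were called in place of 5, and 28.1% of all protein-coding genes.

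Inside gene bodies the order turned. There were 4 AGP genes (13.3%), AGP9, AGP15, AGP17 and AGP18, with a summit of every list between their edges, where 11.1% of all protein-coding genes had one. Without replicate 2 they were 7, where the share of all protein-coding genes was 13.4%. All 5 called FLA genes did (26.3%). FLA genes were reached more often than AGP genes in each of the 3 lists, by 15.4, 6.32 and 22.6 percentage points (AGP minus FLA −14.8 ± 8.18, SD, n = 3, exact 2-sided sign-flip permutation p = 0.25, the smallest possible). FLA genes were also the longer ones, at a median of 1371 bp, where AGP genes had 858 bp and all protein-coding genes 2078 bp. The part of gene length in the difference between the families was not tested. All 3 lists score the same genes, so the sign-flip p-values concern agreement between lists and do not test a difference between families.

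**Figure D1:**
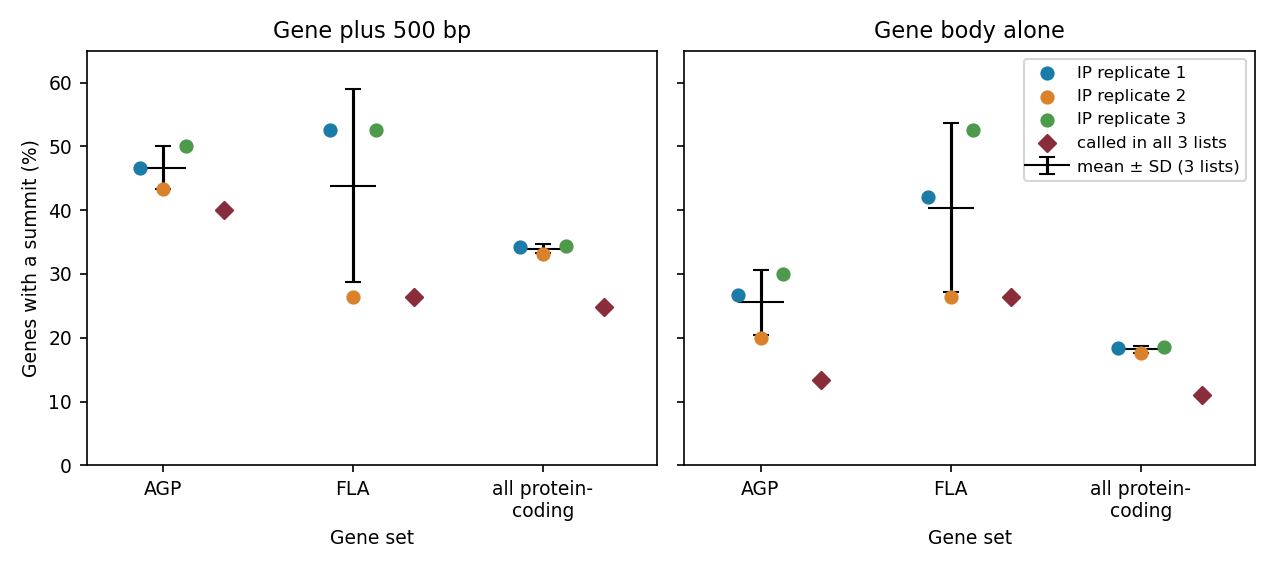
Percentage of genes with a summit in the gene plus 500 bp (left) and in the gene body alone (right), for AGP genes (n = 30), FLA genes (n = 19) and all protein-coding genes. Circles are the 3 IP lists, bars their mean ± SD, and diamonds the genes with a summit in all 3 lists, which stand at 40.0% for AGP and 26.3% for FLA on the left and at 13.3% and 26.3% on the right.

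The called FLA genes were among the longer members of their family, while called AGP genes spanned most of the length range of theirs. The 5 called FLA genes were 1846 to 3292 bp long (median 2360 bp), and the 14 others had a median of 1207.5 bp. Every FLA gene shorter than FLA8, the shortest called one at 1846 bp, missed the call. FLA10, FLA1 and FLA15, which were longer than FLA8, also missed it. The 12 called AGP genes were 427 to 1745 bp long (median 965 bp), against a median of 839.5 bp for the 18 others. All 30 AGP genes were shorter than the median protein-coding gene. Among all protein-coding genes below that median length 18.9% were called, and among those at or above it 30.7%.

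**Figure D2:**
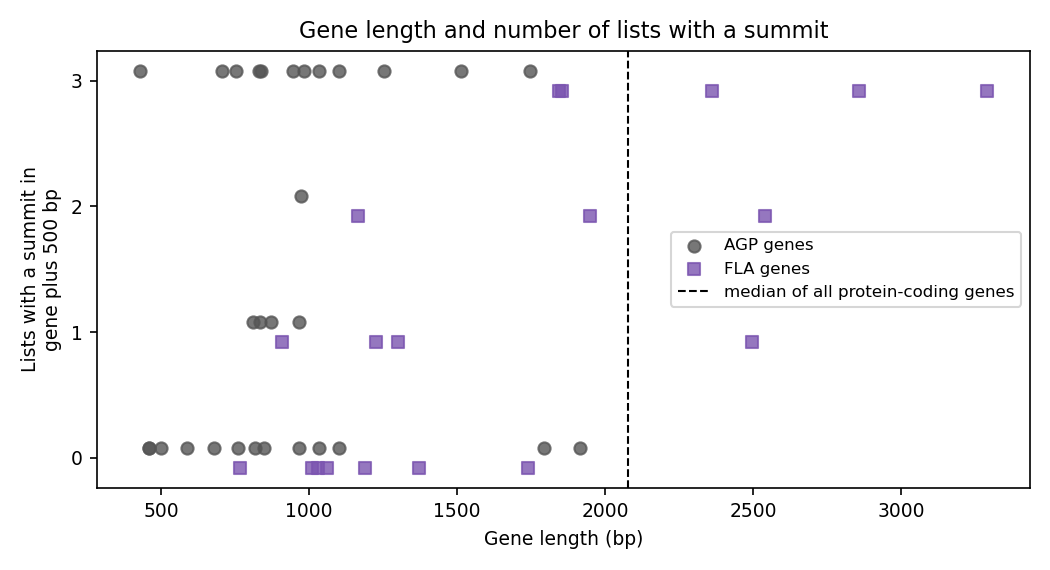
Gene length in bp (x axis) and number of IP lists with a summit in the gene plus 500 bp (y axis) for each AGP gene (circles) and FLA gene (squares), with the median length of all protein-coding genes, 2078 bp, as a dashed line. Called FLA genes sit at 1846 bp and above, and called AGP genes span 427 to 1745 bp.

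AGP15 carried the strongest summits of the AGP genes. AGP15 (AT5G11740) encodes an AG-peptide, an AGP with a very short backbone. Its strengths were 57.9, 47.9 and 52.9 in the lists of replicates 1, 2 and 3, a mean of 52.9 ± 5.01 (SD, n = 3). These values lay above 99% of the summits of their own list in each case, at percentiles 99.1 and higher. The summits stood within 48 bp of each other, 116 to 164 bp inside the lower-coordinate edge of the gene, around position 3784091 of chromosome 5 (TAIR10). Of 6801 called genes, 63 had a higher mean strength. Gene starts and ends are not told apart, because the gene table used carries no strand.

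AGP17 and AGP16 followed by mean strength, with summits above 90% of their list in every replicate at AGP17 and in replicates 1 and 2 at AGP16. AGP17 (AT2G23130) is a lysine-rich AGP known from the transformation of roots by Agrobacterium. Its strengths were 39.6, 21.1 and 20.6 (27.1 ± 10.8, SD, n = 3), with summits 17 to 52 bp inside the lower-coordinate edge, around position 9844174 of chromosome 2. A second, weak group of summits at AGP17, at 1.57, 5.99 and 4.70, lay 181 to 280 bp beyond the other edge and inside the neighbouring ubiquitin ligase gene PUB4. AGP16 (AT2G46330), an AG-peptide gene, had strengths of 29.8, 21.04 and 13.02 (21.3 ± 8.41, SD, n = 3). Its summits straddled the lower-coordinate edge, 143 and 226 bp outside in replicates 1 and 3 and 22 bp inside in replicate 2, and all of them lay within the overlapping gene AT2G46320.

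Further AG-peptide genes were called through summits outside the gene. AGP20 (AT3G61640) had strengths of 18.7, 19.0 and 21.2 (19.6 ± 1.38, SD, n = 3), at percentiles 87.2, 89.9 and 91.4 of their lists. Its summits lay 50 to 157 bp outside the lower-coordinate edge, around position 22809930 of chromosome 3, and the nearest other protein-coding gene, TUBG1, was 1058 bp away. AGP21 (AT1G55330), known from root hair patterning, had strengths of 16.0, 14.8 and 13.1 (14.6 ± 1.46, SD, n = 3). Those summits lay 130 to 157 bp outside the gene and inside the neighbouring gene GCT, so they cannot be given to AGP21 alone.

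Among the 13 classical AGP genes, AGP9 was the strongest and was the only one called inside the gene body. AGP9 (AT2G14890) had strengths of 19.5, 16.5 and 14.0 (16.7 ± 2.75, SD, n = 3) at 1005 to 1092 bp from the lower-coordinate edge of a gene of 1745 bp. A second group at AGP9, 115 to 240 bp beyond the higher-coordinate edge, reached 10.9, 4.92 and 11.4. AGP9 had no other protein-coding gene within 500 bp. With AGP17 it was 1 of 2 AGP genes with more than 1 group of summits shared by all 3 lists.

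AGP26 and AGP11 were called through summits that lay inside other genes. At AGP26 (AT2G47930) the strengths were 8.77, 13.1 and 15.9 (12.6 ± 3.61, SD, n = 3), 52 to 64 bp outside the gene and inside AT2G47935. At AGP11 (AT3G01700), which with AGP6 is known from pollen grains and pollen tubes, they were 15.3, 3.92 and 12.8 (10.7 ± 6.00, SD, n = 3). The AGP11 summits stood within 7 bp of each other, 295 to 302 bp outside the gene and inside AT3G01690. Within their own lists these summits stood at percentiles 82.0, 23.0 and 78.8, low in replicate 2 and high in the others.

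The remaining called AGP genes were near or below the typical called gene, whose median mean strength was 8.90. AGP10 (AT4G09030) had 8.91, 9.96 and 11.5 (10.1 ± 1.28, SD, n = 3), 182 to 270 bp outside the gene. AGP1 (AT5G64310) had 11.8, 7.90 and 9.67 (9.79 ± 1.96, SD, n = 3), within 46 bp of its lower-coordinate edge in every list. AGP18 (AT4G37450), a lysine-rich AGP known from the start of female gametophyte development, had 7.31, 12.1 and 6.41 (8.61 ± 3.07, SD, n = 3), 50 to 173 bp inside the gene.

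AGP2 (AT2G22470) was the weakest called AGP gene. Its strengths were 4.42, 4.96 and 6.54 (5.31 ± 1.10, SD, n = 3). It was also the only called AGP gene without a site shared by all 3 lists. Its summits inside the gene came from replicates 1 and 3, and those 172 to 238 bp outside it from replicates 2 and 3. The other 11 called AGP genes had summits of all 3 lists linked within 250 bp. They are 36.7% of all 30 AGP genes, where 22.6% of all protein-coding genes had such linked summits. Linked summits were common among called genes in general, at 6189 of the 6801 called protein-coding genes.

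**Figure D3:**
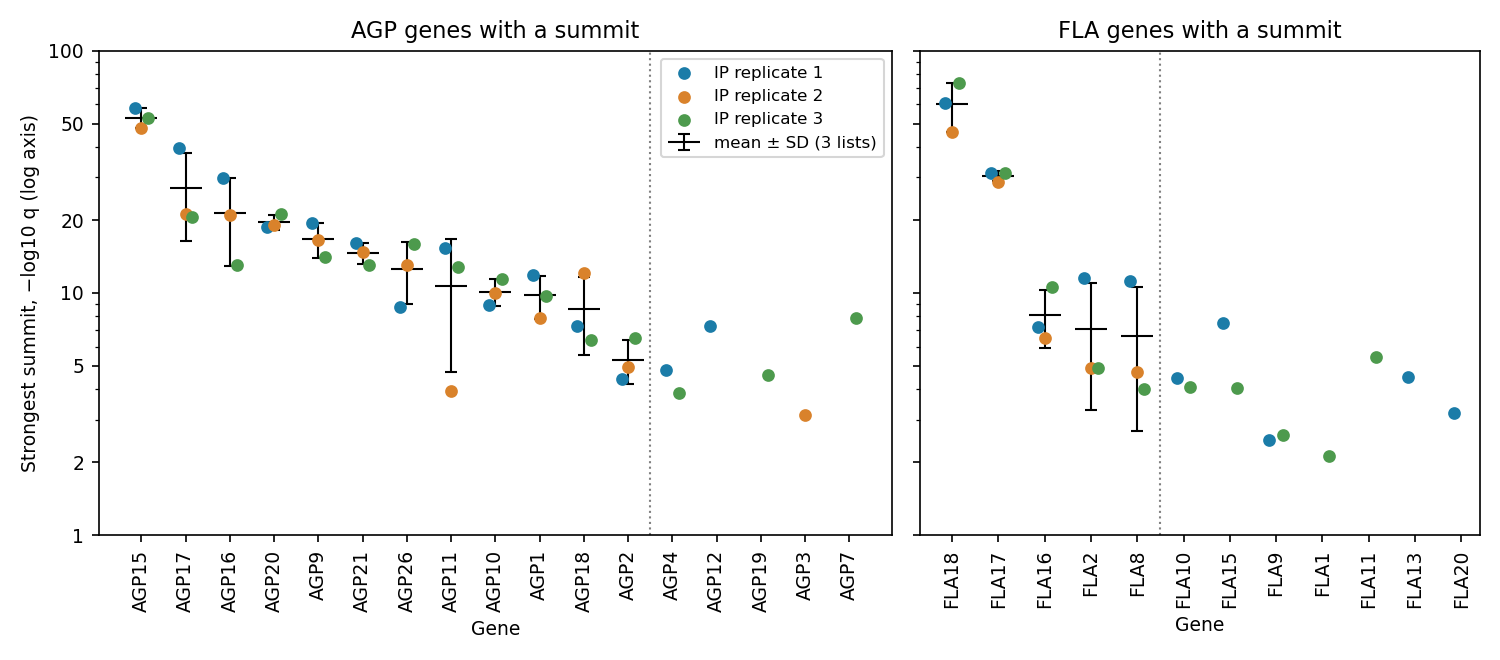
Strength (−log10 q, log axis) of the strongest summit in the gene plus 500 bp in each IP list, for the AGP genes (left) and FLA genes (right) with a summit in any list. Genes left of the dotted line were called in all 3 lists and carry mean ± SD. AGP15 (47.9 to 57.9) and FLA18 (46.1 to 73.3) stand above the rest of their families in every list.

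FLA18 had the highest mean strength of both families. It led in replicates 1 and 3, while AGP15 was higher in replicate 2, at 47.9. FLA18 (AT3G11700) had strengths of 60.6, 46.1 and 73.3 (60.0 ± 13.6, SD, n = 3), 85 to 161 bp inside the lower-coordinate edge, around position 3698772 of chromosome 3. A second group lay 212 to 225 bp beyond the other edge, at 21.1, 19.9 and 17.9 (19.6 ± 1.62, SD, n = 3), in no other protein-coding gene. Only 40 of the 6801 called genes had a higher mean strength than FLA18.

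FLA17 (AT5G06390) was next in the family. It had 31.1, 28.8 and 31.2 (30.4 ± 1.34, SD, n = 3), 86 to 182 bp inside the lower-coordinate edge, around position 1952631 of chromosome 5. These summits stood at percentiles 95.2, 96.2 and 96.04 of their lists.

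FLA16, FLA2 and FLA8 were much weaker. FLA16 (AT2G35860) had 2 groups of summits shared by all 3 lists. The first, 59 to 85 bp inside the lower-coordinate edge, reached 4.14, 5.30 and 10.5 (6.66 ± 3.41, SD, n = 3) and also lay in the overlapping long non-coding RNA gene AT2G35859. The second, 1636 to 1711 bp from that edge, reached 7.25, 6.48 and 4.56 (6.10 ± 1.39, SD, n = 3), so that the strongest site was not the same in every list.

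FLA2 (AT4G12730) had 11.6, 4.92 and 4.88 (7.12 ± 3.86, SD, n = 3), 171 to 250 bp inside the gene. FLA8 (AT2G45470) had a shared group at 11.2, 4.73 and 3.51 (6.49 ± 4.14, SD, n = 3), 1593 to 1667 bp from the lower-coordinate edge of a gene of 1846 bp. Within their lists, the strongest summits of FLA2 stood at percentiles 72.5, 34.3 and 33.5 and those of FLA8 at 71.4, 32.5 and 24.1, above the list's median in replicate 1 alone. The mean of the strongest FLA8 summits was 6.66, and 4.38 without replicate 1. The median mean strength of called members was 8.09 for the 5 FLA genes and 13.6 for the 12 AGP genes.

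**Figure D4:**
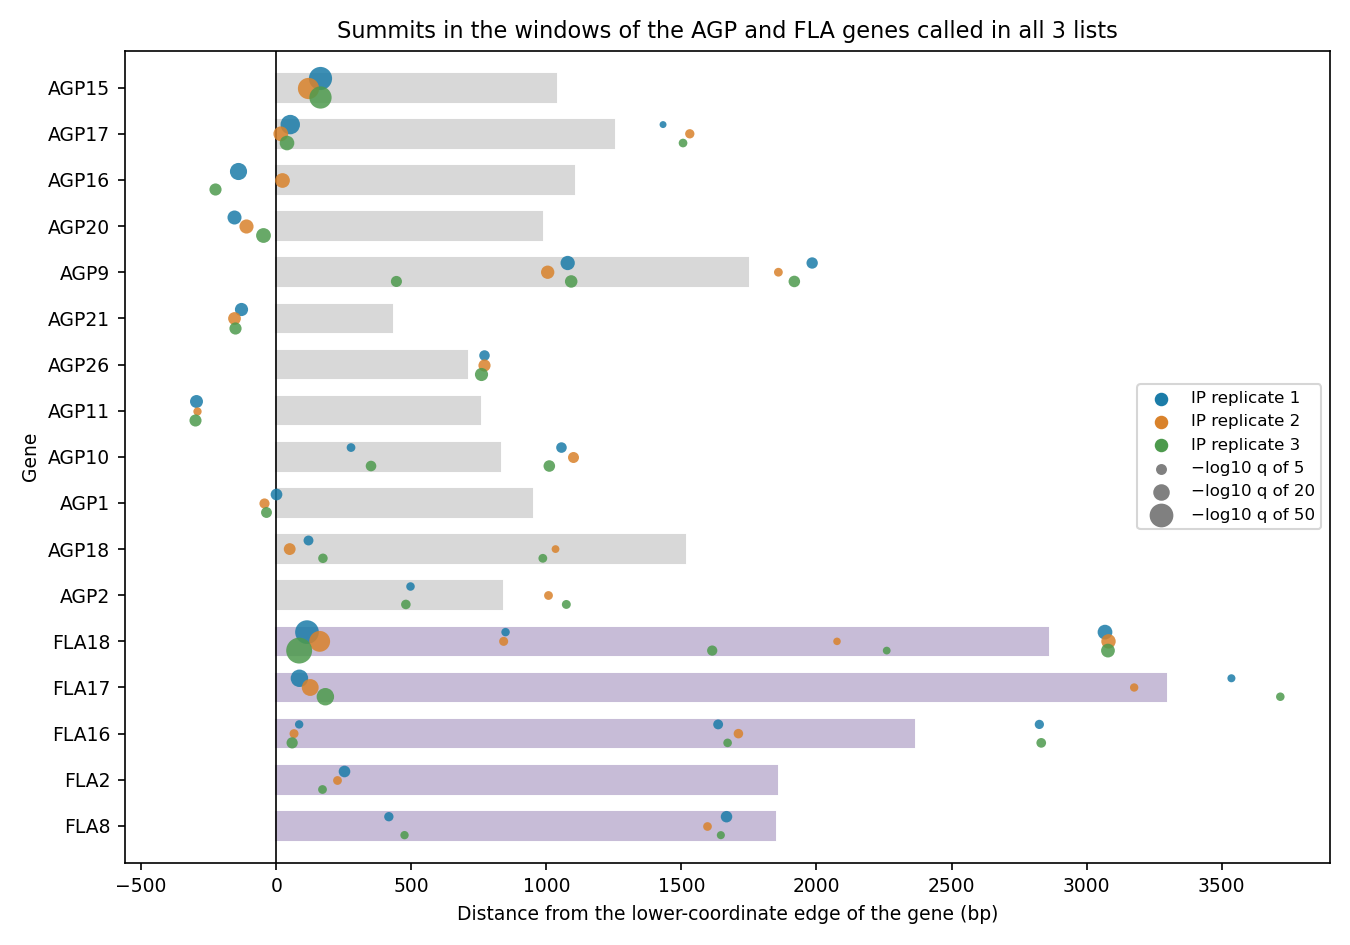
Summits in the windows of the 12 AGP genes (grey) and 5 FLA genes (purple) called in all 3 lists, as distance in bp from the lower-coordinate edge of the gene, with the gene body as a bar. Colour marks the IP list and dot area grows with −log10 q. The strongest summits of every FLA gene shown lie inside the bar, while those of AGP20, AGP21, AGP26, AGP11 and AGP10 lie outside it.

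Position differed between the called genes of the families. The strongest summits lay inside the gene in all 3 lists for 5 of 5 FLA genes and for 4 of 12 AGP genes. They lay outside in all 3 lists for 5 AGP genes and changed sides between lists for 3, AGP1, AGP2 and AGP16. By a looser measure, any summit of every list inside the gene in place of the strongest, 3045 of the 6801 called protein-coding genes qualified. That measure gave 4 AGP and 5 FLA genes as well. Called FLA genes had a median length of 2360 bp and called AGP genes 965 bp, so flanks made up more of the AGP windows. The part of gene length in the difference in position was not tested. When a summit counted only for the gene that contains it, or for the nearest one up to 500 bp away if none does, AGP11, AGP16, AGP21 and AGP26 were no longer called, which left 8 of 30 AGP genes (26.7%) and 5 of 19 FLA genes (26.3%). That rule called 17.7% of all protein-coding genes.

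The published subclasses, applied with these values in view and not tested, show where the calls lay. Over all protein-coding genes 24.8% were called, and 18.9% of the shorter ones. Of the 12 AG-peptide genes 4 were called, of the 13 classical AGP genes 6, of the 3 lysine-rich genes 2, and neither of the non-classical genes AGP30 and AGP31 had a summit. Of the FLA genes, group B (FLA15, FLA16, FLA17 and FLA18) had 3 of 4 called and the remaining gene in 2 lists. All 4 group B genes held summits 59 to 182 bp inside the lower-coordinate edge, FLA15 at 7.50 and 4.04 in replicates 1 and 3. Such a place was not particular to group B. AGP17 held summits 17 to 52 bp inside that edge, AGP18 50 to 173 bp, AGP15 116 to 164 bp and FLA2 171 to 250 bp. Per list and chromosome, 48.8% to 53.2% of all summits lay at most 250 bp from an edge of a protein-coding gene. Group B also had the longest median length of the 4 FLA groups, 2699.5 bp, and 30.7% of all protein-coding genes at or above the median length were called. Group C had 2 of 7 called, FLA2 and FLA8. None of the 6 group A members or the 2 group D members, FLA20 and FLA21, was called. SOS5, the gene for FLA4, had a summit in every list but is no member by symbol and is counted in no group here.

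Members with a summit in 1 or 2 lists had strengths of 2.11 to 7.85, below the mean strengths of most called members. AGP4, known as JAGGER from the synergid cells of the ovule, had 4.80 and 3.88 in replicates 1 and 3. Its summits also lay in the overlapping gene AT5G10435. FLA10 had 4.47 and 4.09 and FLA9 had 2.48 and 2.59 in the same lists. In both genes the summits lay apart, outside the gene in replicate 1 and inside it in replicate 3. Of the genes in 1 list, AGP7 (7.85, replicate 3) and AGP12 (7.30, replicate 1) were highest, followed by FLA11 (5.43, replicate 3), a gene known from secondary walls of the stem. AGP19, the third lysine-rich gene, had 4.60 in replicate 3, at a summit that also lay in the overlapping gene AT1G68723. FLA13 had 4.49 and FLA20 3.18 in replicate 1, AGP3 had 3.13 in replicate 2 and FLA1 had 2.11 in replicate 3.

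The 20 members with no summit in the window of any list were AGP5, AGP6, AGP13, AGP14, AGP22, AGP23, AGP24, AGP25, AGP27, AGP30, AGP31, AGP40 and AGP41 and FLA3, FLA5, FLA6, FLA7, FLA12, FLA14 and FLA21. FLA12, like FLA11, is known from secondary walls. Their closest summit of any list was a median of 4645 bp from the gene, and 1 of the 20 had one within 1000 bp. Of the 6 genes known mainly from pollen, AGP6, AGP11, AGP23, AGP40, FLA3 and FLA14, 5 had no summit, and AGP11 was called through the summits inside AT3G01690 described above. That set was put together with the values known and was not tested. Among the members a missing summit was common, at 20 of all 49. Single lists reached 33.2% to 34.4% of all protein-coding genes, which is a different measure from having no summit in any list. The share of all protein-coding genes with no summit in any list is not given here, so the members were not compared with it.

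Of 53 genes that act on AGPs or encode related wall proteins, 12 (22.6%) were called, a share near the 24.8% of all protein-coding genes. Of the others 4 had a summit in 2 lists, 3 in 1 list and 34 in none. The lists they come from are small, and no count of a single list was read against that share. Of 13 genes of AGP hydroxylation and glycosylation 2 were called, the galactosyltransferase gene GALT31A at 22.3, 19.2 and 17.2 inside the gene, and the prolyl hydroxylase gene P4H1 at 8.43, 2.98 and 5.98 outside it. For hydroxylation and glycosylation 8 further planned loci were dropped, because the gene table does not carry their names, so the 13 are a part of that pathway. None of 4 GPI anchor genes was called. FEI1, a receptor-like kinase gene that acts with SOS5, had 8.90, 11.1 and 10.9 (10.3 ± 1.23, SD, n = 3) within 71 bp outside the gene. P4H1 and FEI1 were no longer called when a summit counted for 1 gene alone. FEI2 had summits in replicates 2 and 3.

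Of 22 early nodulin-like genes, which encode plastocyanin-like proteins with AGP-like stretches, 5 were called, and 4 when a summit counted for 1 gene alone. ENODL17 led at 71.6, 50.4 and 58.4 (60.1 ± 10.7, SD, n = 3), 170 to 206 bp outside the gene, followed by ENODL8 (7.30 ± 0.268) and ENODL16 (6.07 ± 2.81). Genes for GPI-anchored lipid transfer proteins were taken only where the symbol is LTPG followed by a number. The 2 such genes were both called inside the gene, LTPG1 at 10.3 ± 1.40 and LTPG2 at 5.35 ± 1.83 (SD, n = 3). Of 6 extensin genes EXT12 was called, at 2.15, 1.51 and 3.84. Of 5 genes with a PRP symbol 2 were called, the proline-rich protein gene PRP4 (8.20 ± 3.74) and PRP39 (4.17 ± 1.45), a splicing factor gene that shares only the letters and is left out of the 53.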

How the data were processed

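The authors deposited 1 summit list per IP library, with a 1 bp position and a strength. The strength was read as −log10 q, from the deposited layout and because the lowest values, 1.305, 1.331 and 1.301, lie at or just above 1.301, the −log10 of 0.05. The tools named per the submitters' processing notes are MACS2 2.2.5, Bowtie2 2.3.3, fastp and deepTools, with the build TAIR10. Peak settings, and whether inputs served as controls, are not stated there. Lists were assigned to IP libraries by the replicate in their names, and peak names are numbered per replicate. Because −log10 q grows with depth, which is unknown, strengths rank summits within a list. Means over the lists are descriptive, and a difference in strength between libraries is not read as a difference in binding.

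Genes came from an NCBI RefSeq table of assembly TAIR10.1, whose coordinates are not printed. In 15 of 15 combinations of list and chromosome, the share of summits at most 250 bp from the edge of a protein-coding gene was higher with no shift than with shifts of 500 to 5000 bp. The table has no strand, and no genome, promoter or protein sequence was used here, so starts, exons, motifs and protein features set in the plan were not analysed. A gene's strength in a list is its strongest summit in the window. A summit in several windows counts for each gene. Members, lists and rules were chosen with earlier results of these data known. All called members are named, and of other lists at most the 3 strongest. Of the pathway loci, 9 whose name the table does not carry were dropped. FLA4 is SOS5 in the table and is no member. Counting was tested on simulated summits. Python 3.11.15, pandas 2.3.3 and NumPy 2.4.6 were used. Alternatives were other windows, list rules, strength minimums, summit assignments, link distances, member rules and leaving out each replicate.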

Additional observations from a re-analysis of the deposited data

How the results depend on the processing

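With gene bodies alone 4 AGP genes were called and the AGP minus FLA difference turned from 13.7 to −13.0 percentage points. With a summit in at least 2 lists 8 FLA genes were called, FLA9, FLA10 and FLA15 being added, where 33.5% of all protein-coding genes were. The difference was then 1.23 points. A further rule kept only the summits that reached the median strength of their list. In whole windows it called 2 FLA genes, FLA17 and FLA18, and 9 AGP genes, where 11.7% of all protein-coding genes were called. The difference in whole windows was then 19.5 points, the largest of the alternatives run. In gene bodies the rule called the same 2 FLA genes and 3 AGP genes, where 4.9% of all protein-coding genes were called. With each summit given to 1 gene the difference was 0.351 points. Leaving out each replicate in turn gave 12 to 13 AGP genes, 5 to 8 FLA genes and differences from 1.23 to 13.7 points. The extreme values of 8 and 1.23 came without replicate 2. These rules called 27.5% to 28.1% of all protein-coding genes. In gene bodies, leaving out a replicate gave 4 to 7 AGP genes, 7 without replicate 2, and 5 to 6 FLA genes. The share of all protein-coding genes was then 12.9% to 13.4%. The rule of at least 2 lists also gave 7 AGP genes there, where it called 17.2% of all protein-coding genes. The remaining alternatives, windows of 1000 bp, link distances of 100, 250 and 500 bp and synonyms as members, gave 10 to 13 AGP genes and 5 to 7 FLA genes. Windows of 1000 bp called 29.3% of all protein-coding genes, and the 3 link distances 19.4%, 22.6% and 23.7%. The causes were not tested. Among the 17 called members, the rank by percentile within the list moved by no more than the spread of the ranks between lists. The mean strength of FLA8 fell from 6.66 to 4.38 without replicate 1, and no other called member's mean moved by over 1.5 times when a replicate was left out. The counts of the other pathway lists moved by over 1.5 times in 11 of 42 alternatives, most of them lists with 1 or 2 called genes. The unknown depth limits what an absent summit shows. No paired analysis was possible because the input libraries, which share replicate numbers with the IP libraries, have no list among the files analysed here.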

Other observations

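SOS5 (AT3G46550), the gene for FLA4, a protein known from salt tolerance and root growth, is no member by its symbol. It had strengths of 30.2, 26.9 and 23.1 in the lists of replicates 1, 2 and 3, with the strongest summit inside the gene in replicates 1 and 3 and 273 bp outside it in replicate 2, and it held a summit of every list inside the gene. It was looked up because its synonym carries the family name. Counted with the family, it makes 6 of 20 FLA genes called.

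All 4 members with a summit in 2 lists, AGP4, FLA9, FLA10 and FLA15, lacked one in the list of replicate 2. Among all 2388 protein-coding genes with a summit in 2 lists, 37.6% lacked that of replicate 2, 30.9% that of replicate 1 and 31.4% that of replicate 3. The nearest summit of replicate 2 lay 591 bp from FLA9, 3578 bp from FLA15, 4435 bp from FLA10 and 5492 bp from AGP4. ENODL2, an early nodulin-like gene noticed after its values were seen, also lacked replicate 2, with strong summits of 30.1 and 29.6 inside the gene in replicates 1 and 3. The nearest summit of replicate 2, at 20.3, lay 712 bp outside that gene. These counts were not tested.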
